A study of Homo sapiens with 9 samples.

Results

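The transcripts of 43 genes of DNA double-strand break repair were followed in a human line of acute myeloid leukaemia, MOLM-13, when the RNA-binding protein BCLAF1 was depleted and when it was precipitated. The genes were chosen by symbol for their part in homologous recombination, end joining and damage signalling, and all 43 were found in the deposited table of 56541 genes. BCLAF1 is known as a partner of BRCA1 in a complex that acts on the splicing of repair transcripts. The 9 libraries of total RNA form 3 groups of 3 replicates. The RNA-seq groups are shCONTROL, whose hairpin serves as control, and shBCLAF1, whose hairpin is directed against BCLAF1. The RIP group holds RNA that came down with BCLAF1 from shCONTROL cells. Cells of every group had been kept for 4 days in doxycycline, at 200 ng/µL as the labels write it. The labels name neither a mock precipitation nor the number of hairpins or clones, and they do not say whether replicates were separate cultures. The p-values below therefore measure the spread between these libraries, which may be technical.

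Double-strand breaks are sensed by the MRE11, RAD50 and NBN complex, which recruits the kinase ATM, while the kinase ATR answers to single-stranded DNA. Chromatin around the break is then marked by MDC1 and the ubiquitin ligases RNF8 and RNF168, which bring in TP53BP1 and RIF1 or the BRCA1 complexes. End joining reseals the ends with the Ku proteins XRCC5 and XRCC6 and the kinase encoded by PRKDC. Homologous recombination resects the ends and pairs them with an intact copy of the sequence, with the help of BRCA1, PALB2, BRCA2 and the factors of strand exchange. Many genes of recombination are transcribed most in cells that replicate their DNA.

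Totals ran from 25819144 to 36635268 estimated counts per library. Levels are given as CPM, counts scaled by TMM to a common library size, and describe a transcript in 1 library or group, since no transcript lengths were used to compare one gene with another. BCLAF1 itself measured 325, 329 and 313 CPM in shCONTROL and 116, 125 and 100 CPM in shBCLAF1, where every library lay under every control (log2 fold change -1.50, with SE 0.08 and adjusted p 2.06e-04). Adjusted p-values throughout are those of the quasi-likelihood test of edgeR after Benjamini-Hochberg correction. Of 11 markers of myeloid leukaemia cells, 9 were detected, among them CD33, FLT3, SPI1, HOXA9 and MEIS1. CD34 and KIT were at 0 in all 9 libraries. The 6 epithelial and fibroblast markers were at 0 throughout, as were 4 of 5 T-cell, 3 of 5 B-cell and 4 of 6 erythroid markers. The erythroid list summed to 0 CPM in all RNA-seq libraries and to 41.2, 1.23 and 60.0 CPM in the RIP libraries, through HBA1 and HBA2.

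**Figure D1:**
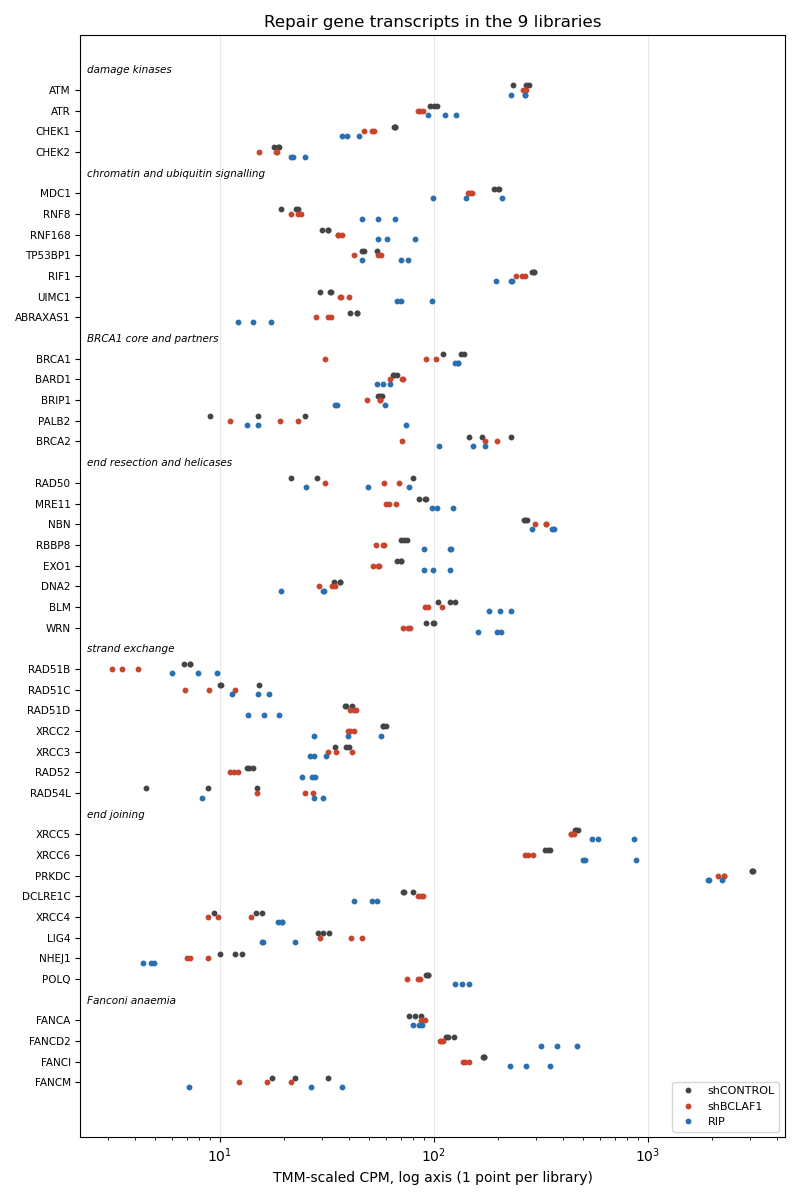
TMM-scaled CPM of the 43 members on a log axis, with 1 point per library, coloured by group and ordered by role. Levels run from a few CPM for RAD51B and NHEJ1 to over 1915 CPM for PRKDC, and PALB2, RAD50, RAD54L, BRCA1 and FANCM show points of 1 group far apart.

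The knock-down comparison asks which repair transcripts change when BCLAF1 is depleted. Of the 43 genes, 15 fell and 4 rose at an adjusted p under 0.05, and 24 did not pass. The largest falls were those of RAD51B, NHEJ1, XRCC2, MRE11 and PRKDC, to between 51.2% and 72.2% of the control. The falls were spread over the damage kinases, chromatin factors, resection nucleases, strand exchange, end joining and Fanconi anaemia genes, while each of the 5 genes around BRCA1 failed to pass. Of these, BRCA1, PALB2 and BRCA2 had SEs of 0.42, 0.43 and 0.39, so changes of the size called elsewhere were not detectable in them. Members lower made up 34.9% of the 43, against 16.9% of the 16961 genes tested, and members higher 9.30%, against 15.5%. The genes tested were not matched to the members for level. The median log2 fold change was -0.19 over the members and 0.02 over all genes tested. In 24 members the shBCLAF1 and shCONTROL libraries did not overlap, beside 49.3% of all genes. Lack of overlap in a gene named below is to be read beside that share. A log2 fold change of 1 or more was passed by 0 members in either direction, beside 1.77% of all genes higher and 2.24% lower. At such shares few or none are likely among 43 genes, so this count does not set the members apart. With a single fit of all 9 libraries, whose common spread includes the RIP, 6 members were lower and 0 higher, with 13 and 1 at an unadjusted p under 0.05. DESeq2 called 18 lower and 5 higher. The higher count was 1 without shCONTROL replicate 3 or shBCLAF1 replicate 2 and 2 without shBCLAF1 replicate 1.

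Other lists of genes were read in the same libraries. Of a list of 30 replication and S-phase genes, 19 were lower and 1 higher, with a median log2 fold change of -0.34. Their summed level was 4545 to 4897 CPM in shCONTROL and 3531 to 3654 CPM in shBCLAF1. Of 20 mitotic genes, 4 were lower and 2 higher, with a median of -0.04. Of 20 p53 target genes, 4 were lower and 6 higher, with a median of 0.13. The part of these lists in the changes of the repair genes was not tested. In bulk RNA, fewer cells in a state and less RNA per cell cannot be told apart.

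**Figure D2:**
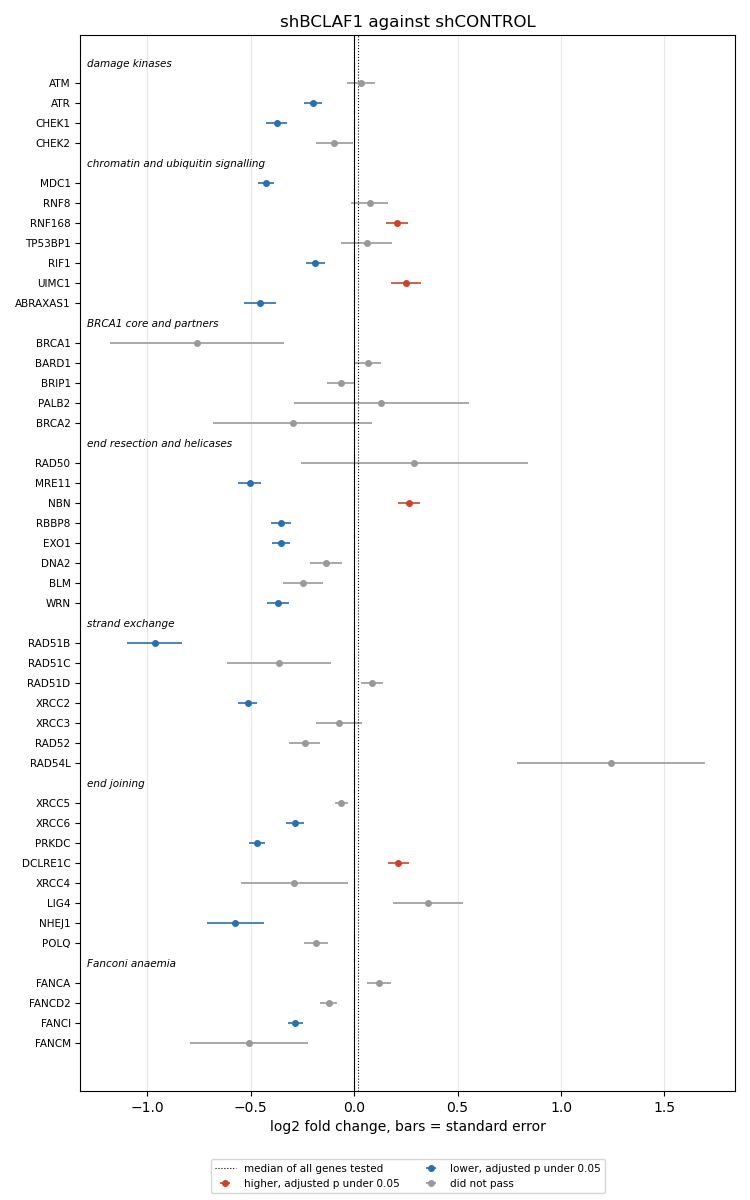
Log2 fold change of each member in shBCLAF1 against shCONTROL, with bars for the standard error, by role, and the median of all genes tested as a dotted line. The 15 blue points (lower) lie between RAD51B at -0.97 and RIF1 at -0.19, and the 4 red points (higher) lie between 0.21 and 0.27.

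Of the damage kinases, both kinases of the replication checkpoint fell. CHEK1, the effector kinase below ATR, measured 65.2, 65.8 and 65.5 CPM in shCONTROL and 51.4, 52.7 and 47.4 CPM in shBCLAF1 (log2 fold change -0.37, with SE 0.05 and adjusted p 0.00272). The control libraries were within 1 CPM of each other and all above the knock-down libraries. ATR measured 99.8, 95.6 and 104 CPM and 84.8, 88.7 and 86.5 CPM (log2 fold change -0.20, with SE 0.04 and adjusted p 0.0161), again without overlap. The call for ATR was lost without shCONTROL replicate 1 or 3 or shBCLAF1 replicate 1 (adjusted p 0.0724, 0.0792 and 0.0522). ATM, the kinase activated by breaks, measured 268, 235 and 277 CPM and 269, 262 and 267 CPM, so the knock-down libraries lay within the control range (log2 fold change 0.03, with SE 0.07 and adjusted p 0.752). CHEK2, the effector below ATM, had a log2 fold change of -0.10 (SE 0.09 and adjusted p 0.483).

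Among the 7 genes of chromatin and ubiquitin signalling, 3 fell and 2 rose. MDC1, the adaptor that binds phosphorylated histone H2AX, measured 202, 191 and 200.0 CPM in shCONTROL and 150.1, 148 and 144 CPM in shBCLAF1 (log2 fold change -0.43, with SE 0.04 and adjusted p 6.45e-04). ABRAXAS1, the scaffold of the BRCA1-A complex, measured 40.4, 43.6 and 43.8 CPM and 31.9, 33.2 and 28.1 CPM (log2 fold change -0.45, with SE 0.08 and adjusted p 0.00642). In both genes every knock-down library was under every control. UIMC1, which encodes the ubiquitin-binding subunit RAP80 of the same BRCA1-A complex, moved the other way, at 29.4, 33.2 and 32.8 CPM and 36.5, 36.7 and 40.3 CPM (log2 fold change 0.25, with SE 0.07 and adjusted p 0.0432). RNF168, the ligase that ubiquitinates histone H2A, measured 32.1, 31.9 and 30.0 CPM and 37.2, 35.7 and 35.6 CPM (log2 fold change 0.21, with SE 0.05 and adjusted p 0.0271). RIF1, an effector of TP53BP1 that limits resection, fell to 87.8% of the control (log2 fold change -0.19, with SE 0.05 and adjusted p 0.0240). The groups did not overlap in any of these 5 genes. The call for UIMC1 was lost without any 1 of the 6 libraries (adjusted p 0.0601 to 0.108) or without the filter on low counts (0.0608), that for RNF168 without shCONTROL replicate 3 or shBCLAF1 replicate 1 or 2 (0.0689 to 0.0802), and that for RIF1 without any shCONTROL replicate or without shBCLAF1 replicate 1 (0.0590 to 0.0842). RNF8 and TP53BP1 had log2 fold changes of 0.07 (SE 0.09) and 0.06 (SE 0.12) and did not pass.

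BRCA1, the ubiquitin ligase subunit that directs breaks to recombination, measured 110.2, 135 and 138 CPM in shCONTROL and 31.0, 102 and 92.4 CPM in shBCLAF1. All knock-down libraries lay under all controls, and shBCLAF1 replicate 1 stood far under the other 2. The log2 fold change of -0.76 had an SE of 0.42 and did not pass (adjusted p 0.229). Without shBCLAF1 replicate 1 it was -0.39 (adjusted p 0.0681), and it did not pass in any of the 13 alternatives. BARD1, the partner of BRCA1 in the ligase, measured 65.2, 67.1 and 64.3 CPM and 71.7, 71.4 and 62.5 CPM, with overlapping groups (log2 fold change 0.07, with SE 0.06 and adjusted p 0.490). BRIP1, a helicase that binds BRCA1, measured 56.1, 54.7 and 57.3 CPM and 55.8, 56.0 and 48.8 CPM (log2 fold change -0.07, with SE 0.06 and adjusted p 0.498). PALB2, the bridge between BRCA1 and BRCA2, ranged over 15.0, 24.9 and 8.95 CPM in shCONTROL alone and over 11.2, 23.2 and 19.2 CPM in shBCLAF1. BRCA2, the product of a hereditary breast cancer gene that acts in recombination, measured 146, 229 and 169 CPM and 198, 173 and 71.2 CPM, with shBCLAF1 replicate 3 alone under all controls. The SE of the log2 fold change was 0.43 for PALB2 and 0.39 for BRCA2, near the 0.42 of BRCA1. Changes of the size called in the other members were therefore not detectable in BRCA1, PALB2 or BRCA2. Of the 5 genes, 0 were at an unadjusted p under 0.05, and DESeq2 called 0.

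Of the 8 genes of resection and its helicases, 4 fell and 1 rose. MRE11, the nuclease of the sensor complex, measured 91.7, 90.7 and 85.3 CPM in shCONTROL and 60.0, 66.5 and 62.0 CPM in shBCLAF1 (log2 fold change -0.51, with SE 0.06 and adjusted p 0.00133). NBN, the subunit that binds ATM, measured 264, 274 and 266 CPM and 335, 333 and 298 CPM (log2 fold change 0.27, with SE 0.05 and adjusted p 0.0116). The 2 genes of the same complex thus moved in opposite directions, each without overlap between groups. RBBP8, which encodes the resection factor CtIP, measured 72.2, 75.1 and 70.4 CPM and 58.6, 57.8 and 53.7 CPM (log2 fold change -0.35, with SE 0.05 and adjusted p 0.00329). EXO1, the exonuclease of long-range resection, measured 70.2, 67.7 and 69.9 CPM and 54.9, 55.7 and 51.9 CPM (log2 fold change -0.35, with SE 0.04 and adjusted p 0.00202). WRN, the Werner syndrome helicase, measured 99.9, 98.7 and 92.0 CPM and 71.6, 77.3 and 76.0 CPM (log2 fold change -0.37, with SE 0.05 and adjusted p 0.00317). These 3 genes fell by nearly the same amount, to between 77.4% and 78.3% of the control. BLM had a log2 fold change of -0.25 (SE 0.10 and adjusted p 0.102), which passed without shBCLAF1 replicate 1 (0.0464), when replicate numbers were blocked (0.0299) and with DESeq2 (0.0485), and DNA2 one of -0.14 (SE 0.08 and adjusted p 0.232).

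RAD50, the third subunit of the sensor complex, could not be read from its own row. Its counts were 760, 963 and 2852 in shCONTROL, 1176, 2196 and 2531 in shBCLAF1, and 1269, 720 and 2212 in the RIP. A row without a symbol, ENSG00000283782, held 2024, 1682 and 0 counts in the same shCONTROL libraries, 1508, 805 and 468 in shBCLAF1, and 1253, 1786 and 0 in the RIP. Within each group the libraries ranked in opposite order in these rows, although the counts were nearly equal in RIP replicate 1 (1269 and 1253). The sums were 2784, 2645 and 2852 in shCONTROL and 2684, 3001 and 2999 in shBCLAF1, or 79.0 ± 0.510 and 77.6 ± 5.80 CPM (SD, n = 3 each). For the sum, a value chosen after the counts were seen, the log2 fold change after knock-down was -0.03 (SE 0.06 and adjusted p 0.791), in place of 0.29 (SE 0.55 and adjusted p 0.734) for the row of RAD50. In the RIP it was 0.15 (SE 0.11 and adjusted p 0.281), in place of 0.22 (SE 0.60 and adjusted p 0.779).

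**Figure D3:**
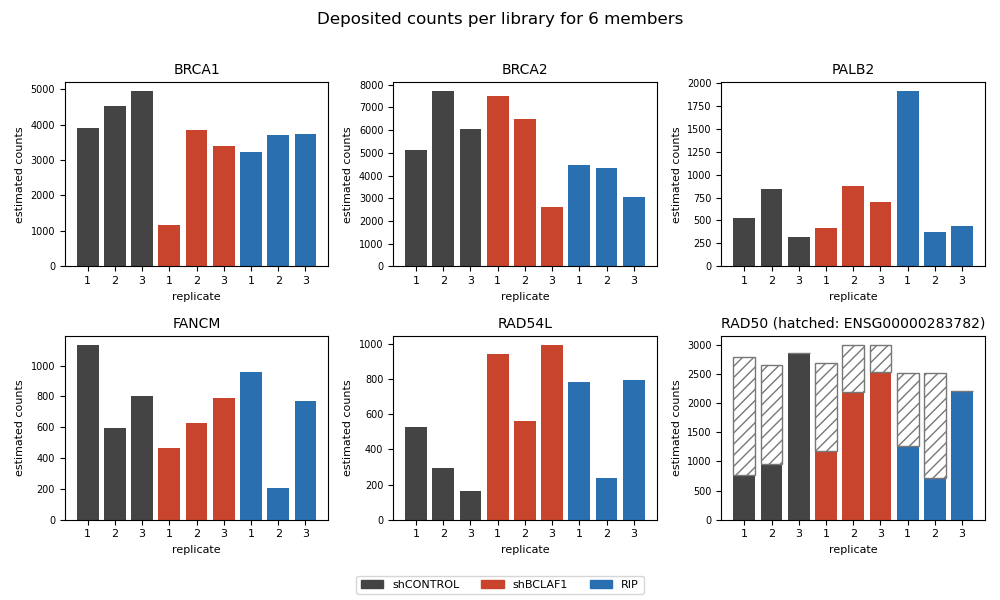
Deposited counts in each of the 9 libraries for BRCA1, BRCA2, PALB2, FANCM, RAD54L and RAD50, coloured by group, with the counts of ENSG00000283782 stacked on RAD50 as hatched bars. The stacked RAD50 bars stay between 2212 and 3001 although the RAD50 row alone runs from 720 to 2852.

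Replicates also stood apart in other members. In 8 of the 43 genes the highest library of a group was over 2 times the lowest in at least 1 group: BRCA1, BRCA2, FANCM, MDC1, PALB2, RAD50, RAD54L and XRCC2. In shCONTROL this held for 3 members, beside 3.48% of all genes at the members' levels, and in shBCLAF1 for 4 members, beside 3.70% of those genes. In the RIP it held for 6 members, beside 9.23% of those genes. RAD54L, a motor protein of recombination, measured 15.0, 8.76 and 4.52 CPM in shCONTROL and 25.0, 14.9 and 27.2 CPM in shBCLAF1. Its log2 fold change of 1.24 was the highest of all members, but the groups overlapped and it did not pass (SE 0.45 and adjusted p 0.0859). It passed with DESeq2 (0.0124) and without shCONTROL replicate 1 (0.0352). FANCM, a translocase of the Fanconi anaemia pathway, measured 32.2, 17.6 and 22.4 CPM and 12.3, 16.7 and 21.6 CPM, with overlapping groups (log2 fold change -0.51, with SE 0.28 and adjusted p 0.231).

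Of the 7 genes of strand exchange, 2 fell. RAD51B measured 6.80, 7.22 and 7.22 CPM in shCONTROL and 3.15, 4.15 and 3.49 CPM in shBCLAF1, the lowest log2 fold change of all members (log2 fold change -0.97, with SE 0.13 and adjusted p 0.00279). XRCC2 measured 58.1, 57.9 and 59.9 CPM and 39.9, 40.5 and 42.4 CPM (log2 fold change -0.52, with SE 0.04 and adjusted p 6.09e-04). In both genes all knock-down libraries lay under all controls. RAD51B, RAD51C, RAD51D and XRCC2 act together in 1 complex, and the other 2 subunits did not pass. RAD51D measured 38.5, 38.8 and 41.3 CPM and 43.5, 42.1 and 40.4 CPM (log2 fold change 0.09, with SE 0.05 and adjusted p 0.266). RAD51C measured 15.2, 10.2 and 10.0 CPM and 8.91, 11.7 and 6.85 CPM, with 1 control library above the rest (log2 fold change -0.36, with SE 0.25 and adjusted p 0.331). XRCC3, the partner of RAD51C in a second complex, had a log2 fold change of -0.07 (SE 0.11 and adjusted p 0.670). RAD52, the annealing protein, had one of -0.24 (SE 0.07 and adjusted p 0.0511), with groups that did not overlap.

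Of the 8 end-joining genes, 3 fell and 1 rose. PRKDC, the catalytic subunit of the DNA-dependent protein kinase, measured 3103, 3058 and 3070 CPM in shCONTROL and 2265, 2270 and 2126 CPM in shBCLAF1 (log2 fold change -0.47, with SE 0.04 and adjusted p 5.15e-04). It held more counts than any other member and made up most of the difference in the summed level of the 43 genes, which was 7011 to 7040 CPM in shCONTROL and 5595 to 5961 CPM in shBCLAF1. XRCC6 measured 347, 332 and 340.5 CPM and 292, 274 and 268 CPM (log2 fold change -0.29, with SE 0.04 and adjusted p 0.00405), and its Ku partner XRCC5 measured 474, 455 and 460.3 CPM and 451, 439 and 439 CPM (log2 fold change -0.06, with SE 0.03 and adjusted p 0.206). Both genes had groups without overlap, but XRCC5 did not pass. NHEJ1, which encodes the ligation factor XLF, measured 11.8, 9.98 and 12.8 CPM and 8.83, 7.29 and 7.01 CPM (log2 fold change -0.57, with SE 0.14 and adjusted p 0.0221). This call was lost without shCONTROL replicate 1 or 3 or shBCLAF1 replicate 2 or 3 (adjusted p 0.0601 to 0.0754). DCLRE1C, the hairpin-opening nuclease Artemis, rose, at 71.9, 79.7 and 72.9 CPM and 87.2, 88.7 and 84.4 CPM (log2 fold change 0.21, with SE 0.05 and adjusted p 0.0237). This call was lost without shCONTROL replicate 1 or 3 or shBCLAF1 replicate 1 or 2 (0.0648 to 0.0832). LIG4, the ligase, measured 32.3, 28.7 and 30.2 CPM and 29.3, 46.3 and 41.2 CPM, with shBCLAF1 replicate 1 inside the control range (log2 fold change 0.36, with SE 0.17 and adjusted p 0.165). Without that library it passed (log2 fold change 0.53, adjusted p 0.0121). XRCC4, the scaffold of the ligase, and POLQ, the polymerase of the alternative pathway, had log2 fold changes of -0.29 (SE 0.26) and -0.19 (SE 0.06) and did not pass. POLQ passed without shBCLAF1 replicate 3 (adjusted p 0.0422) and with DESeq2 (0.0240).

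In the Fanconi anaemia genes, FANCI fell and its partner did not pass. FANCI measured 170.4, 171 and 172 CPM in shCONTROL and 137, 146 and 139.7 CPM in shBCLAF1 (log2 fold change -0.28, with SE 0.04 and adjusted p 0.00229). FANCD2, which is ubiquitinated together with FANCI, measured 114, 124 and 116 CPM and 108, 110.0 and 107 CPM (log2 fold change -0.12, with SE 0.04 and adjusted p 0.0705), also without overlap, and passed with DESeq2 (0.0318). FANCA, of the core complex, had a log2 fold change of 0.12 (SE 0.06 and adjusted p 0.172).

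Among 57 other genes of break repair, 55 were tested after knock-down, of which 18 were lower and 2 higher, with a median log2 fold change of -0.05. The smallest adjusted p-values belonged to PARP1 (log2 fold change -0.67), RAD51AP1 (-0.67), FIGNL1 (-0.56) and SLX4 (0.58). PARP1, the break-sensing ADP-ribose polymerase, measured 370, 353 and 392 CPM in shCONTROL and 229, 230.4 and 242 CPM in shBCLAF1. RAD51AP1 and FIGNL1 act in recombination, and SLX4 is a scaffold of nucleases. SLX4 measured 45.3, 46.2 and 51.1 CPM in shCONTROL and 68.0, 70.1 and 75.5 CPM in shBCLAF1.

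Promoter windows of 4 members are shown because these genes changed after knock-down in both directions, XRCC2, MDC1 and MRE11 falling and DCLRE1C rising. The windows, from RefSeq on GRCh38.p14, reach from 250 bases before to 50 bases after the annotated start, and 37 of the 43 members had at least 1. Both strands were searched for TTCCCGC and TTGGCGC (E2F), TTTGAA (the CHR element), CCAAT (NF-Y), TGACGTCA (CRE) and CCGGAAG (ETS). None of these motifs holds another. Capitals mark each match on either strand, the sequence is written 5′ to 3′ along the gene, and every one of the 4 genes lies on the minus strand. The windows are chr7:152676092-152676391 for XRCC2, chr6:30717232-30717531 for MDC1, chr11:94493795-94494094 for MRE11 and chr10:14954047-14954346 for DCLRE1C, the last being 1 of its 2 windows, chosen for its E2F matches.
XRCC2: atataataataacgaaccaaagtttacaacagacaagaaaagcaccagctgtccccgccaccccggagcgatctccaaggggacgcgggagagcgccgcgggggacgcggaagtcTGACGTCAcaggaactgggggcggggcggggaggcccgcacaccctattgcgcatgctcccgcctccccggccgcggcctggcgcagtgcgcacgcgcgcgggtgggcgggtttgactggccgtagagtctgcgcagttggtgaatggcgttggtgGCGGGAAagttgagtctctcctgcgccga
MDC1: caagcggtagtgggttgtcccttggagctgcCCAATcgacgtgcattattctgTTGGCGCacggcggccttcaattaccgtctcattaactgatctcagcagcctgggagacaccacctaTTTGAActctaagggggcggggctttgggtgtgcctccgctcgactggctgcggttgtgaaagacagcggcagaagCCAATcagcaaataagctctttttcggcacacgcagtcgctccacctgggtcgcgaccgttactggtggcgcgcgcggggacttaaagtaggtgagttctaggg
MRE11: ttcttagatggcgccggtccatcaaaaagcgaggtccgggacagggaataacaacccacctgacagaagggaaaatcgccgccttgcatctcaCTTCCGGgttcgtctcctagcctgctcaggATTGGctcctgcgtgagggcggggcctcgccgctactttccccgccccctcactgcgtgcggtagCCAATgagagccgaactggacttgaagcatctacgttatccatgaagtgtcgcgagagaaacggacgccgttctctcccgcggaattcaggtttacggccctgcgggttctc
DCLRE1C: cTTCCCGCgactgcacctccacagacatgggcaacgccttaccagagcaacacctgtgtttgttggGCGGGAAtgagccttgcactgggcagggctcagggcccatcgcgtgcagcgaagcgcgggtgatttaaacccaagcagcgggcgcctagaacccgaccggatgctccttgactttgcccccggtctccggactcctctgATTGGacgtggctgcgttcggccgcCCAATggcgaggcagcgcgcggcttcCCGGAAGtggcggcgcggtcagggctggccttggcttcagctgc

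E2F and CCAAT matches stood in windows of genes of both directions. The XRCC2 window held 1 E2F match and 1 CRE match, and the MDC1 window 1 E2F match, 1 CHR match and 2 CCAAT matches. The MRE11 window, of a gene whose log2 fold change of -0.51 was close to the -0.52 of XRCC2, held 2 CCAAT matches and 1 ETS match. The DCLRE1C window, of a gene that rose, held 2 E2F, 2 CCAAT and 1 ETS matches. Over the 37 members with a window, 15 (40.5%) held an E2F match, against 11.0% of all 27305 symbols in the table. Those 15 comprised 3 of the 12 members that fell and had a window, 1 of 3 that rose and 11 of 22 that did not pass. An ETS match was held by 16 members (43.2%), against 12.2% of all symbols, and CCAAT by 20 (54.1%), against 39.7%. CRE was held by 4 members (10.8%), against 2.25% of all symbols, and CHR by 5 (13.5%), against 18.2%. The shares over all symbols were not limited to genes expressed in these cells and were not matched for base composition. The 2 sets are therefore unlike, and the reason for their difference was not tested. A match describes the letters of a window and not a site in use.

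The RIP comparison asks which repair transcripts were recovered with BCLAF1 beyond their level in the same cells. Of the 43 genes, 14 stood above and 9 below their shCONTROL level (adjusted p under 0.05), and 20 did not pass. All genes called came to 49.2% in this comparison and to 32.3% after knock-down. Past a size of 1 on the log2 scale, 4 were higher, namely FANCD2, RNF8, UIMC1 and RNF168, and 3 lower, namely ABRAXAS1, NHEJ1 and RAD51D. Those higher included FANCD2 and FANCI of the Fanconi pathway, 5 of the 8 genes of resection and its helicases, and the ubiquitin ligases RNF8 and RNF168, and 4 of the 8 end-joining genes were among those lower. Members higher made up 32.6% of the 43, against 24.6% of the 16727 genes tested, and members lower 20.9%, against 24.7%. Here too the genes tested were not matched to the members for level. The shares past a log2 fold change of 1 in all genes were 11.0% higher and 13.5% lower. The median log2 fold change was 0.22 over the members and -0.05 over all genes. In 29 members the RIP and shCONTROL libraries did not overlap, beside 67.1% of all genes. Where groups of a single gene are said not to overlap in the RIP, that share applies. The reference is total RNA and not a mock precipitation, so binding and background of the precipitation cannot be told apart. With total counts in place of TMM the median of all genes moved by -0.11, with 12 higher and 9 lower members. Both comparisons use the same shCONTROL libraries.

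**Figure D4:**
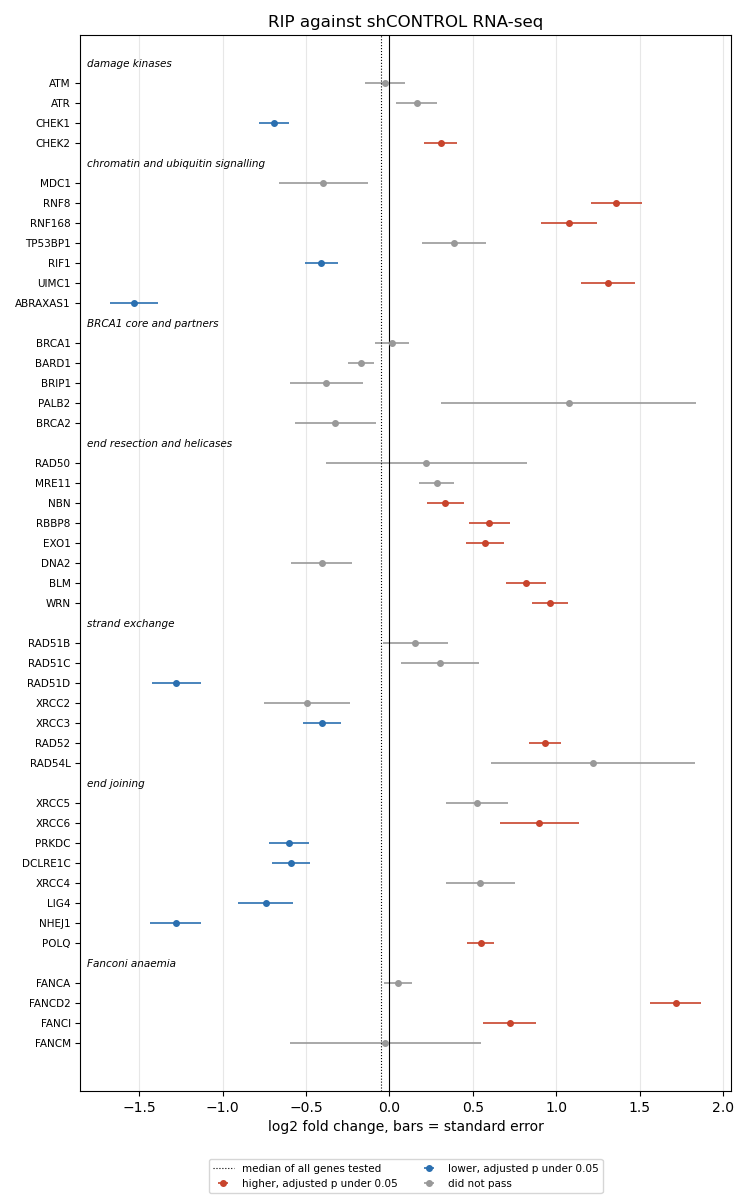
Log2 fold change of each member in the RIP against shCONTROL RNA-seq, with bars for the standard error, by role, and the median of all genes tested as a dotted line. FANCD2 lies highest at 1.72 and ABRAXAS1 lowest at -1.53, while PALB2, RAD50, RAD54L and FANCM have the widest bars.

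FANCD2, FANCI and the helicases WRN and BLM were higher in the RIP. FANCD2 measured 114, 124 and 116 CPM in shCONTROL and 375, 316 and 468 CPM in the RIP, or 3.28 times the control (log2 fold change 1.72, with SE 0.15 and adjusted p 5.00e-04). FANCI measured 269.6, 227 and 349 CPM in the RIP (log2 fold change 0.72, with SE 0.16 and adjusted p 0.0110). WRN measured 205, 161 and 198 CPM in the RIP, against 99.9, 98.7 and 92.0 CPM in shCONTROL (log2 fold change 0.96, with SE 0.11 and adjusted p 0.00104). BLM, the Bloom syndrome helicase, measured 126, 119.5 and 105 CPM in shCONTROL and 203, 182 and 229 CPM in the RIP (log2 fold change 0.82, with SE 0.12 and adjusted p 0.00235). In all 4 genes the RIP libraries lay above all controls. RBBP8 and EXO1 measured 119, 89.6 and 119.8 CPM and 98.9, 89.7 and 119 CPM in the RIP, with log2 fold changes of 0.60 (SE 0.12 and adjusted p 0.00882) and 0.57 (SE 0.12 and adjusted p 0.00784). Of the 8 genes of resection and its helicases, 5 were higher, and NBN was the weakest of them (log2 fold change 0.33, with SE 0.11 and adjusted p 0.0488). The call for NBN was lost without any shCONTROL replicate or without RIP replicate 1 or 3 (adjusted p 0.0850 to 0.147) and when replicate numbers were blocked (0.117) and with total counts in place of TMM (0.227). MRE11 had a log2 fold change of 0.28 (SE 0.10 and adjusted p 0.0675). It passed without RIP replicate 2 (0.0384), with DESeq2 (0.0251) and in 1 fit of all 9 libraries (0.0319). DNA2 had a log2 fold change of -0.41 (SE 0.18 and adjusted p 0.117). FANCA had a log2 fold change of 0.05 (SE 0.09), and FANCM, at 37.2, 7.17 and 26.7 CPM, one of -0.02 (SE 0.57).

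Chromatin factors divided in the RIP. RNF8, the ligase that starts the ubiquitin mark, measured 23.2, 19.3 and 22.6 CPM in shCONTROL and 55.0, 46.2 and 65.7 CPM in the RIP (log2 fold change 1.36, with SE 0.15 and adjusted p 9.93e-04). RNF168 measured 55.1, 81.9 and 60.4 CPM in the RIP (log2 fold change 1.08, with SE 0.17 and adjusted p 0.00294), and UIMC1 67.6, 70.1 and 98.3 CPM (log2 fold change 1.31, with SE 0.16 and adjusted p 0.00130). ABRAXAS1, whose product binds that of UIMC1, measured 40.4, 43.6 and 43.8 CPM in shCONTROL and 17.3, 12.2 and 14.3 CPM in the RIP (log2 fold change -1.53, with SE 0.14 and adjusted p 5.66e-04). The groups did not overlap in any of these 4 genes, as in 67.1% of all genes tested. The RIP held 2.48 times the control level of UIMC1 and 0.346 times that of ABRAXAS1. RIF1 was lower, at 231, 229 and 196 CPM (log2 fold change -0.41, with SE 0.10 and adjusted p 0.0159), a call lost without any shCONTROL replicate (adjusted p 0.0590 to 0.0657) and when replicate numbers were blocked (0.0511). MDC1 varied over 142, 208 and 98.7 CPM in the RIP, with replicate 2 above all controls and the other 2 under them (log2 fold change -0.40, with SE 0.27 and adjusted p 0.265), and passed without that library (log2 fold change -0.72, adjusted p 0.0221). TP53BP1 had a log2 fold change of 0.39 (SE 0.19 and adjusted p 0.147), which passed without RIP replicate 2 (0.00735).

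The genes around BRCA1 did not pass in the RIP. BRCA1 measured 126, 129.9 and 129 CPM, within the control range of 110.2 to 138 CPM, and its log2 fold change of 0.01 (SE 0.10 and adjusted p 0.914) changed sign under 3 of 14 alternatives without passing in any. BARD1 measured 62.2, 54.3 and 57.7 CPM, under all controls (log2 fold change -0.17, with SE 0.08 and adjusted p 0.123). BRIP1 measured 59.1, 35.2 and 34.5 CPM, with RIP replicate 1 above all controls and the other 2 under them, and without that replicate it passed (log2 fold change -0.67, adjusted p 0.00274). PALB2 measured 74.4, 13.3 and 15.0 CPM, so its log2 fold change of 1.07 (SE 0.76 and adjusted p 0.286) rested on RIP replicate 1, without which it was -0.19. BRCA2 measured 174, 152 and 106 CPM (log2 fold change -0.32, with SE 0.24 and adjusted p 0.307). Of these 5 genes, 0 were at an unadjusted p under 0.05, and DESeq2 called 0.

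Of the 8 end-joining genes, 2 were higher and 4 lower in the RIP. XRCC6 measured 500.1, 511 and 885 CPM in the RIP, all above the controls, with replicate 3 far above the other 2 (log2 fold change 0.90, with SE 0.24 and adjusted p 0.0215). Its call was lost without any shCONTROL replicate (adjusted p 0.0675 to 0.0761), and leaving out RIP replicate 3 took the log2 fold change to 0.59. XRCC5 was also highest in replicate 3, at 583, 547 and 861 CPM (log2 fold change 0.52, with SE 0.18 and adjusted p 0.0577). It passed without RIP replicate 2 or 3 (0.0330 and 0.0218), with DESeq2 (0.0173) and in 1 fit of all 9 libraries (0.0215). POLQ was higher, at 146, 125 and 136 CPM (log2 fold change 0.55, with SE 0.08 and adjusted p 0.00268). PRKDC measured 1924, 2212 and 1915 CPM in the RIP, against 3103, 3058 and 3070 CPM in shCONTROL (log2 fold change -0.60, with SE 0.12 and adjusted p 0.00791). NHEJ1 measured 4.74, 4.92 and 4.39 CPM in the RIP, or 0.412 times the control (log2 fold change -1.28, with SE 0.15 and adjusted p 0.00118). LIG4 and DCLRE1C measured 22.5, 15.8 and 16.0 CPM and 54.2, 51.6 and 42.4 CPM, with log2 fold changes of -0.74 (SE 0.16 and adjusted p 0.0112) and -0.59 (SE 0.12 and adjusted p 0.00711). The RIP libraries lay under all controls in these 4 genes. XRCC4 had a log2 fold change of 0.54 (SE 0.21 and adjusted p 0.0721), and passed with DESeq2 (0.0467).

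Of the strand-exchange genes, RAD51D and XRCC3 were lower and RAD52 higher in the RIP. RAD51D measured 38.5, 38.8 and 41.3 CPM in shCONTROL and 16.1, 18.9 and 13.5 CPM in the RIP (log2 fold change -1.28, with SE 0.15 and adjusted p 0.00101). RAD52 measured 13.8, 14.3 and 13.3 CPM in shCONTROL and 27.8, 24.1 and 26.9 CPM in the RIP (log2 fold change 0.93, with SE 0.10 and adjusted p 7.72e-04). XRCC3 measured 27.6, 31.2 and 26.5 CPM in the RIP (log2 fold change -0.41, with SE 0.11 and adjusted p 0.0271), a call lost without shCONTROL replicate 1 or 3 or RIP replicate 1 or 3 (adjusted p 0.0560 to 0.0988) and when replicate numbers were blocked (0.0899). RAD51B, the member with the lowest value after knock-down, measured 7.93, 5.98 and 9.67 CPM in the RIP and overlapped the controls (log2 fold change 0.15, with SE 0.20 and adjusted p 0.535). XRCC2 measured 39.6, 56.8 and 27.7 CPM, with replicate 2 just under the controls, and passed without that library (log2 fold change -0.80, adjusted p 0.0149). RAD51C and RAD54L had log2 fold changes of 0.30 (SE 0.23) and 1.22 (SE 0.61) and did not pass, and RAD54L passed without RIP replicate 2 (adjusted p 0.0482).

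Of the damage kinases, CHEK1 measured 44.7, 37.1 and 39.2 CPM in the RIP, under all controls (log2 fold change -0.69, with SE 0.09 and adjusted p 0.00167). CHEK2 measured 21.5, 21.9 and 25.1 CPM, above all controls (log2 fold change 0.31, with SE 0.10 and adjusted p 0.0439), a call lost without any shCONTROL replicate or without RIP replicate 3 (adjusted p 0.0684 to 0.144) and when replicate numbers were blocked (0.112) and with total counts (0.185). ATM and ATR overlapped the controls, at 268, 267 and 228 CPM and 127, 93.6 and 112 CPM, with log2 fold changes of -0.03 (SE 0.12) and 0.16 (SE 0.12).

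Set side by side, the values of the 2 comparisons ran in every combination of directions among members that passed in both. FANCI had a log2 fold change of -0.28 after knock-down and 0.72 in the RIP. WRN had -0.37 and 0.96, RBBP8 -0.35 and 0.60, EXO1 -0.35 and 0.57, and XRCC6 -0.29 and 0.90. The other falling members that passed in the RIP were lower there. ABRAXAS1 had -0.45 and -1.53, NHEJ1 -0.57 and -1.28, CHEK1 -0.37 and -0.69, PRKDC -0.47 and -0.60, and RIF1 -0.19 and -0.41. Of the members that rose after knock-down, UIMC1 had 0.25 and 1.31, RNF168 0.21 and 1.08, and NBN 0.27 and 0.33, while DCLRE1C had 0.21 and -0.59. Since the shCONTROL libraries enter both comparisons, no relation between the values was tested.

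The lists tested beside the members moved in their own ways in the RIP. Of 30 replication and S-phase genes, 17 were lower and 3 higher, with a median log2 fold change of -0.56. Of 20 mitotic genes, 15 were higher and 3 lower, with a median of 0.99. Of the 56 other repair genes tested, 12 were higher and 17 lower, with a median of -0.06. MAD2L2, a subunit of shieldin that limits resection and the gene of that list with the smallest adjusted p, measured 49.1, 46.5 and 50.5 CPM in shCONTROL and 122, 116 and 129 CPM in the RIP (log2 fold change 1.34, with adjusted p 2.26e-04). The RIP libraries also differed from the RNA-seq in the HBA1 and HBA2 levels given above, whose part was not tested.

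Counts of some members may be shared with other rows. By RefSeq on GRCh38.p14, 14 of the 43 genes overlap a protein-coding gene, such as MRE11 with ANKRD49 and RAD54L with LRRC41. The library kit marks strand, but no source used here says whether the counting used it. Rows named as pseudogenes exist for 4 members, of which XRCC6P2 held 569 to 801 counts in the RNA-seq libraries and 808 to 1702 in the RIP, beside 9822 to 25615 for XRCC6. Those of CHEK2 and FANCD2 were at 0 in all libraries.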

How the data were processed

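Expression was measured by stranded RNA-seq after removal of ribosomal RNA, per the labels' protocols, with paired reads from 9 libraries in 3 groups. The submitters' processing notes name STAR 2.7.11b, StringTie 2.2.3 and the build hg38; the annotation and the counting step are not given in the sources used here. The authors deposited 1 table of estimated counts (expected counts) per gene, not normalized. Values were whole and were used as deposited. An entry that names no gene, with 2.18% to 3.75% of the counts in 8 libraries, was left out.

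Each comparison was fitted on all genes of its own 6 libraries with edgeR 4.0.16 (R 4.3.3): default filter on low counts, TMM scaling, prior count 2, quasi-likelihood F-test, Benjamini-Hochberg adjustment over all genes tested, threshold 0.05. SEs come from the coefficient and its F statistic. Values in all libraries are shown as CPM from TMM over the 9 libraries. The code was tested on simulated data with changes of 1 on the log2 scale, where it called 52.6% of 192 changed genes in the knock-down design and 10.8% of 194 in the RIP design, with 4 false calls in each.

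The members, lists and tests were chosen with earlier results of these data known. By rule, full statistics were given for the 8 lowest and 8 highest members past the threshold and for BRCA1; members named beyond it were chosen by role. The lists were grouped by function: replication and S-phase, mitosis, p53 targets, other repair genes, BCLAF1 with splicing partners of BRCA1, and cell type markers. Alternatives numbered 13 for the knock-down and 14 for the RIP: other size factors (DESeq2, total counts), no filter, DESeq2 1.42.0, a fit of all 9 libraries, the replicate number as a block, a minimum change, another RIP reference, and leaving out each library. Protein sequences were not used here. A further repair gene is not reported here.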

Additional observations from a re-analysis of the deposited data

How the results depend on the processing

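After knock-down, 15 members lower and 4 higher became 6 and 0 with a single fit of all 9 libraries, and 5 and 0 when tested against a minimum of 0.3 on the log2 scale. At an unadjusted p under 0.05 the single fit held 13 lower and 1 higher. Leaving out 1 library gave 12 to 15 lower and 1 to 3 higher members. The higher count was lowest, at 1, without shCONTROL replicate 3 or shBCLAF1 replicate 2, and it was 2 without shBCLAF1 replicate 1. In the RIP, testing against a minimum of 1 left 1 of 14 higher and 1 of 9 lower members, and likewise 1 of the 4 higher and 1 of the 3 lower by at least 1. Leaving out 1 library gave 11 to 18 higher and 7 to 11 lower members, with 4 to 6 higher and 3 lower by at least 1. Over the other settings these counts stayed within 1.5 times of those reported.

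Deviations of same-numbered libraries were only weakly correlated (0.0169, 0.0736 and 0.0383 for shBCLAF1 with shCONTROL, -0.0343, 0.0137 and 0.0185 for RIP with shCONTROL). In the knock-down each shBCLAF1 library correlated best with the control of its own number, a hint from the data and not the design; in the RIP 1 of 3 did. The replicate number as a block gave 16 lower and 4 higher members after knock-down, and 12 higher and 7 lower in the RIP. Of members that had not passed, BLM gained a call under the block after knock-down (adjusted p 0.0299).

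The log2 fold change of BRCA1 in the RIP was -0.10 with total counts, -0.076 without shCONTROL replicate 1 (0.075 without shCONTROL replicate 3) and -4.75e-04 without RIP replicate 2. That of RAD50 after knock-down was -0.026 when summed with ENSG00000283782. Over the called members chosen by rule, 32 of 156 pairs of member and setting lost the call after knock-down (12 members) and 21 of 224 in the RIP (16 members), and 0 changed sign. Called members with smaller changes were outside this count. In the RIP, NBN, CHEK2 and XRCC3 among them passed in 3, 6 and 8 of 14 settings. FANCI, RBBP8, EXO1 and POLQ, also outside it, passed in 13 of 14 each. The causes were not tested. With 3 libraries a group, members that did not pass in the RIP may still differ. The simulated RIP design called 10.8% of changes of 1, but in it 194 of 16051 genes changed. In the data 49.2% of genes were called, which eases the adjusted threshold. The simulated share therefore does not measure how many real changes were missed.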

Other observations

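Of the 6 genes in the list of BCLAF1 and splicing partners of BRCA1, 2 were lower after knock-down, BCLAF1 itself and PRPF8, a core protein of the spliceosome (log2 fold change -0.22, adjusted p 0.0289 by edgeR). SF3B1, U2AF1, U2AF2 and THRAP3, the paralogue of BCLAF1, did not pass, with log2 fold changes from 0.01 to 0.11. The row of U2AF1 was low, with means of 4.59 CPM in shCONTROL and 4.94 CPM in shBCLAF1 and an SE of 0.185. In the RIP it held 3.93, 0 and 0 CPM, so it says little about that gene. In the RIP 4 of the 6 were higher, namely BCLAF1, THRAP3, SF3B1 and U2AF2.

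ATRIP, the partner of ATR, measured 28.4, 19.3 and 19.8 CPM in shCONTROL and 29.5, 30.1 and 29.0 CPM in shBCLAF1 (log2 fold change 0.39, with SE 0.16 and adjusted p 0.110). In the RIP it measured 25.9, 18.6 and 18.2 CPM (log2 fold change -0.10, adjusted p 0.719). A table of counts per gene does not show splicing.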
